A study of Mus musculus with 32 samples.

Results

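Heparan sulfate proteoglycans and the enzymes that build, modify and trim their chains were followed across the 3 cell types and 3 time points of a mouse islet series. The members were chosen by gene symbol alone: the syndecans *Sdc1* to *Sdc4*, the glypicans *Gpc1* to *Gpc6*, the chain polymerases *Ext1*, *Ext2* and *Extl1* to *Extl3*, the N-deacetylase/N-sulfotransferases *Ndst1* to *Ndst4*, *Glce*, *Hs2st1*, the 6-O-sulfotransferases *Hs6st1* to *Hs6st3*, the 3-O-sulfotransferases of the *Hs3st* family, the heparanase genes *Hpse* and *Hpse2*, and the sulfatases *Sulf1* and *Sulf2*. This rule found 35 of the 22850 genes in the table. All samples came from mice that carried 3 transgenes together. RIP-rtTA is a doxycycline-dependent activator under the rat insulin promoter, TetO-VEGF-A is a human VEGF-A that the activator turns on, and MIP-GFP is green fluorescent protein under the mouse insulin 1 promoter. The controls (No Dox) therefore carried the same transgenes as mice given doxycycline for 1 week (1wk Dox) and mice studied 1 week after doxycycline was withdrawn (1wk WD), and VEGF-A was produced by β cells. The mice were adults on a C57BL/6 background. Islet cells were sorted into GFP+ β cells, CD31+ endothelial cells (ECs) and CD11b+ macrophages (MΦs), and their RNA was amplified and sequenced.

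Heparan sulfate is a long sugar chain built on core proteins, which are held in the membrane by a spanning segment (syndecans) or a lipid anchor (glypicans). EXT enzymes lengthen the chain, NDST enzymes start its sulfation, an epimerase and 2-O-, 6-O- and 3-O-sulfotransferases refine it, and the secreted sulfatases and heparanase edit or cut it outside the cell. The pattern of sulfate groups sets how the chain binds growth factors such as VEGF-A, FGFs and HGF, which is why these genes are of interest in an islet that is induced to make VEGF-A.

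The measurements are the authors' normalized scores, a depth-adjusted read value per gene whose lowest entry is 1. There were 32 samples in 9 groups. In the order No Dox, then 1wk Dox, then 1wk WD, these were 4, 5 and 3 samples of β cells, 4, 1 and 5 of ECs, and 4, 2 and 4 of MΦs. Score totals per sample ran from 23465985 to 53441769, but the scores cannot be turned back into reads and the sequencing depth behind them is unknown. The 1wk Dox EC sample is replicate 4 and the 1wk Dox MΦ samples are replicates 4 and 5, and any with lower numbers were not analysed here. In the deposited column identifiers, these samples and 1wk WD β cell replicate 3 form a number run apart from all other samples. What this run marks is not stated, and for ECs and MΦs at 1wk Dox it cannot be told apart from the time point. Per the study's methods the samples of a group are biological replicates, each from the pooled islets of several mice. The labels do not tie a sample to a sort or to its mice, so p-values measure the spread between pools, part of which may be technical. In these sorted bulk samples, fewer cells of a type and less RNA per cell cannot be told apart. The labelled cell types carried their own markers: the summed score of 10 β cell genes was 513966 to 10941261 in β cells, against 371 to 3339 in ECs and 1975 to 47759 in MΦs. The 10 endothelial genes summed to 421682 to 676408 in ECs, and the macrophage genes summed to 273999 to 456335 in MΦs. The β cell libraries were uneven. Their 10 pericyte and stroma genes (*Pdgfrb*, *Rgs5*, *Col1a1*, *Dcn* and others) summed to 1031 and 1125 in No Dox replicates 1 and 2, but to 153817 and 540417 in replicates 3 and 4. Acinar marker genes summed to 704687 and 32621 in replicates 1 and 2 and to 12296279 and 9038143 in replicates 3 and 4. The β cell genes summed to 8751584 and 5647945, then to 1681031 and 644064.

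Of the 35 members, 32 reached a mean score of 20 at some time point in β cells, 28 did so in MΦs and 22 in ECs. The other members, *Hpse2*, *Hs3st2* and *Hs3st4*, stayed below this minimum in every cell type. *Hs3st4* was listed at 1 in every sample but one, a 1wk Dox β cell sample with a score of 20. The 13 members below the minimum in ECs included *Sdc1*, *Gpc1*, *Gpc5*, *Hpse*, *Ndst4*, *Hs6st2*, *Hs3st3a1* and *Hs3st6*. A gene was called when it differed by at least 2-fold with an adjusted p under 0.05 (limma on log2 of the score plus 1, adjusted over all genes tested), and the log2 differences and folds below are on that scale.

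**Figure D1:**
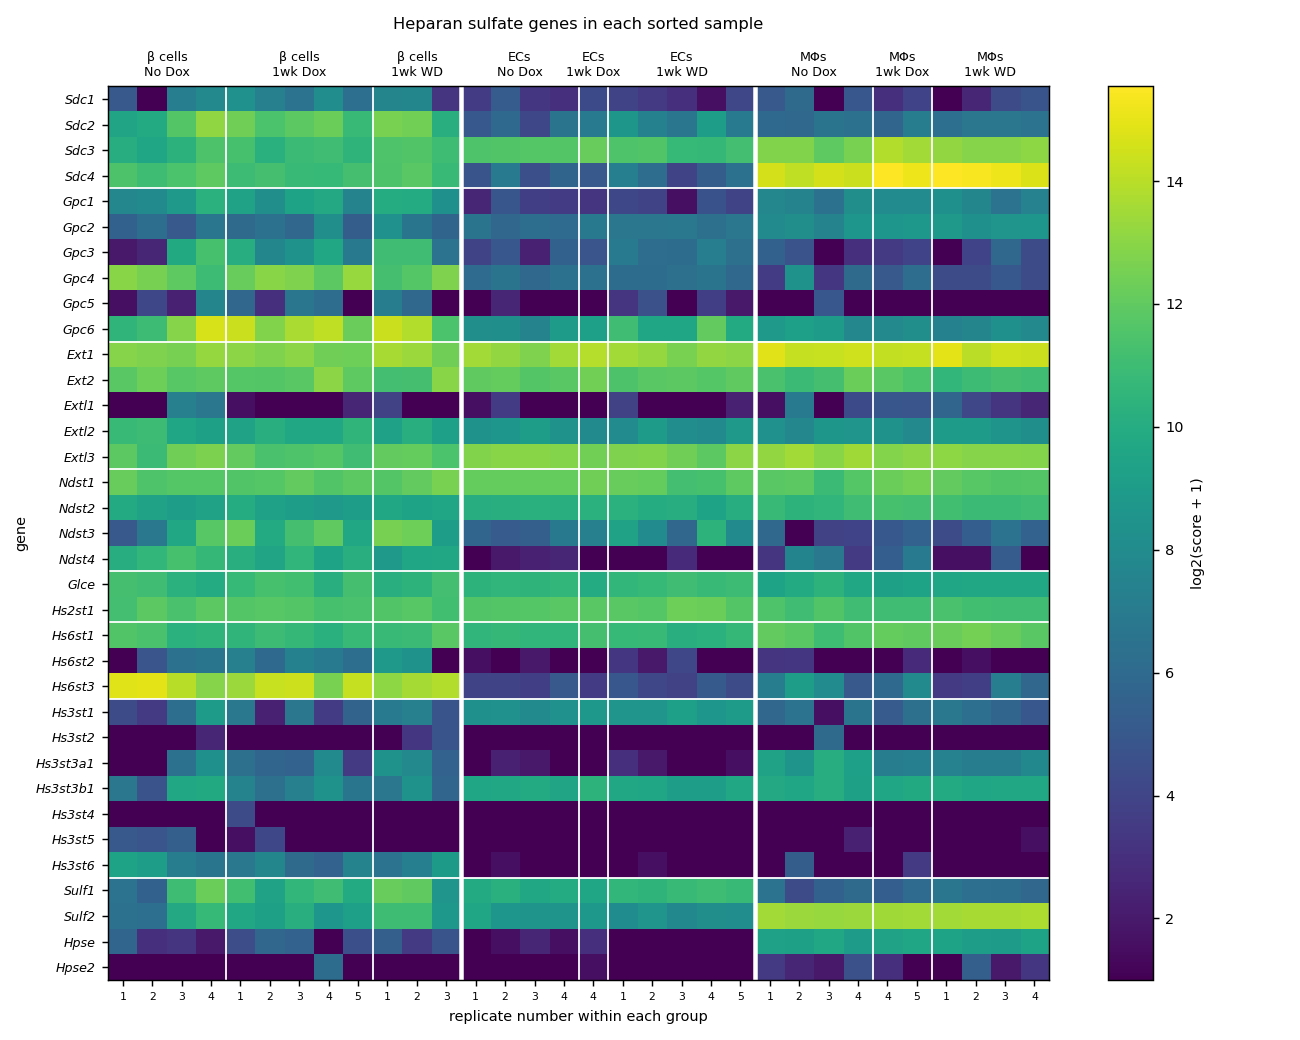
Heat map of log2(score + 1) for the 35 members (rows, by role) in the 32 samples (columns, by cell type and time point), from dark (low) to yellow (high). *Hs6st3* is high in the β cell columns, with scores of 6226 to 30917, *Sdc4* is highest in the MΦ columns, with scores of 18416 to 47668, and *Hs3st4* is at the floor of 1 in all but one column.

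The members present and their levels differed between β cells, ECs and MΦs. At No Dox, 12 of 32 members tested were called between ECs and β cells, 1 higher and 11 lower in ECs, where 37.7% of all genes tested were called. Between ECs and MΦs 11 of 32 were called, 1 higher and 10 lower in ECs, against 33.5% of all genes. Between MΦs and β cells 19 of 32 were called, 9 higher and 10 lower in MΦs, against 43.2% of all genes. The shares of members called were 37.5%, 34.4% and 59.4%, so that the first and the second were close to the background. At 1wk WD, 18 of 31 members were called between ECs and β cells, 2 higher and 16 lower in ECs, against 39.9% of all genes. At that time 17 of 31 were called between ECs and MΦs, 7 higher and 10 lower in ECs, against 40.3%. Between MΦs and β cells 22 of 31 were called, 9 higher and 13 lower in MΦs, against 46.2%. Members called at both times always kept their direction: 10 for ECs against β cells, 9 for ECs against MΦs and 16 for MΦs against β cells. The time points share no samples, but members of one gene family are not independent of each other.

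**Figure D2:**
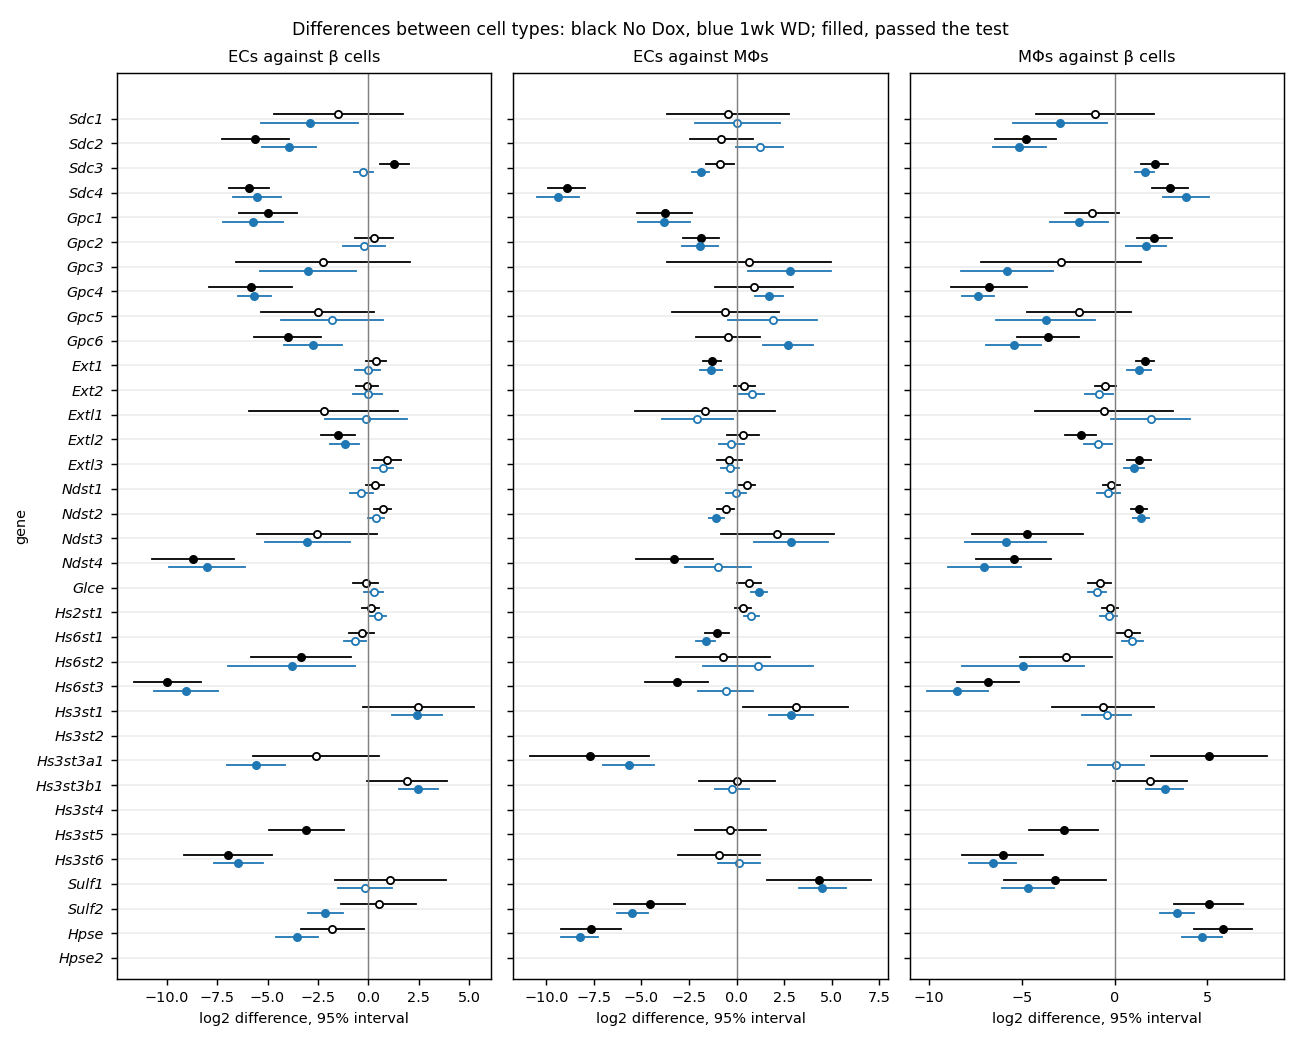
Log2 difference between cell types for each member at No Dox and at 1wk WD, with 95% confidence intervals from the limma fit (filled points passed the test). *Sdc4*, *Sulf2* and *Hpse* lie on the MΦ side, whereas *Hs6st3*, *Gpc4* and *Hs3st6* lie on the β cell side at both times.

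Among the syndecans, transmembrane core proteins that also anchor cells to matrix, *Sdc4* led in MΦs and *Sdc3* in ECs. *Sdc4* scored 24429, 18416, 25216 and 21459 in No Dox MΦs, 2849, 2043, 2696 and 3892 in β cells and 26, 133, 22 and 51 in ECs. These 3 ranges did not overlap. *Sdc4* was 7.94-fold higher in MΦs than in β cells (log2 2.99, SE 0.45, adjusted p = 0.000175) and 487-fold lower in ECs than in MΦs (log2 -8.93, SE 0.45, adjusted p = 2.85e-08). *Sdc3*, a syndecan best known from neurons, scored 3023 to 3358 in the 4 No Dox EC samples, 773 to 2807 in β cells and 3883 to 7177 in MΦs. It was 2.42-fold higher in ECs than in β cells at No Dox (log2 1.27, SE 0.33, adjusted p = 0.00766), and was the single member called higher there. Without β cell replicates 1 and 2 it was not called (log2 0.74, adjusted p = 0.0675). At 1wk WD that difference was -0.25 on the log2 scale (95% interval -0.74 to 0.23, adjusted p = 0.365) and the groups overlapped. Per kb of exon, *Sdc4* made up 89.2% ± 3.36 (SD, n = 4) of the summed syndecan score in MΦs and *Sdc3* made up 92.8% ± 4.72 (n = 4) in ECs. β cells were mixed, with 54.6% ± 18.6 (n = 4) from *Sdc4* and 34.1% ± 18.8 from *Sdc2*, which other tissues make mostly in mesenchymal cells. *Sdc2* in β cells was 732 and 943 in No Dox replicates 1 and 2 and 3183 and 8808 in replicates 3 and 4, so it was higher in the libraries with the high stromal sums, and the part of those cells in its level was not tested. *Sdc1*, the epithelial syndecan, was low throughout, at 1 to 325 in β cells and 63 or less in ECs and MΦs.

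**Figure D3:**
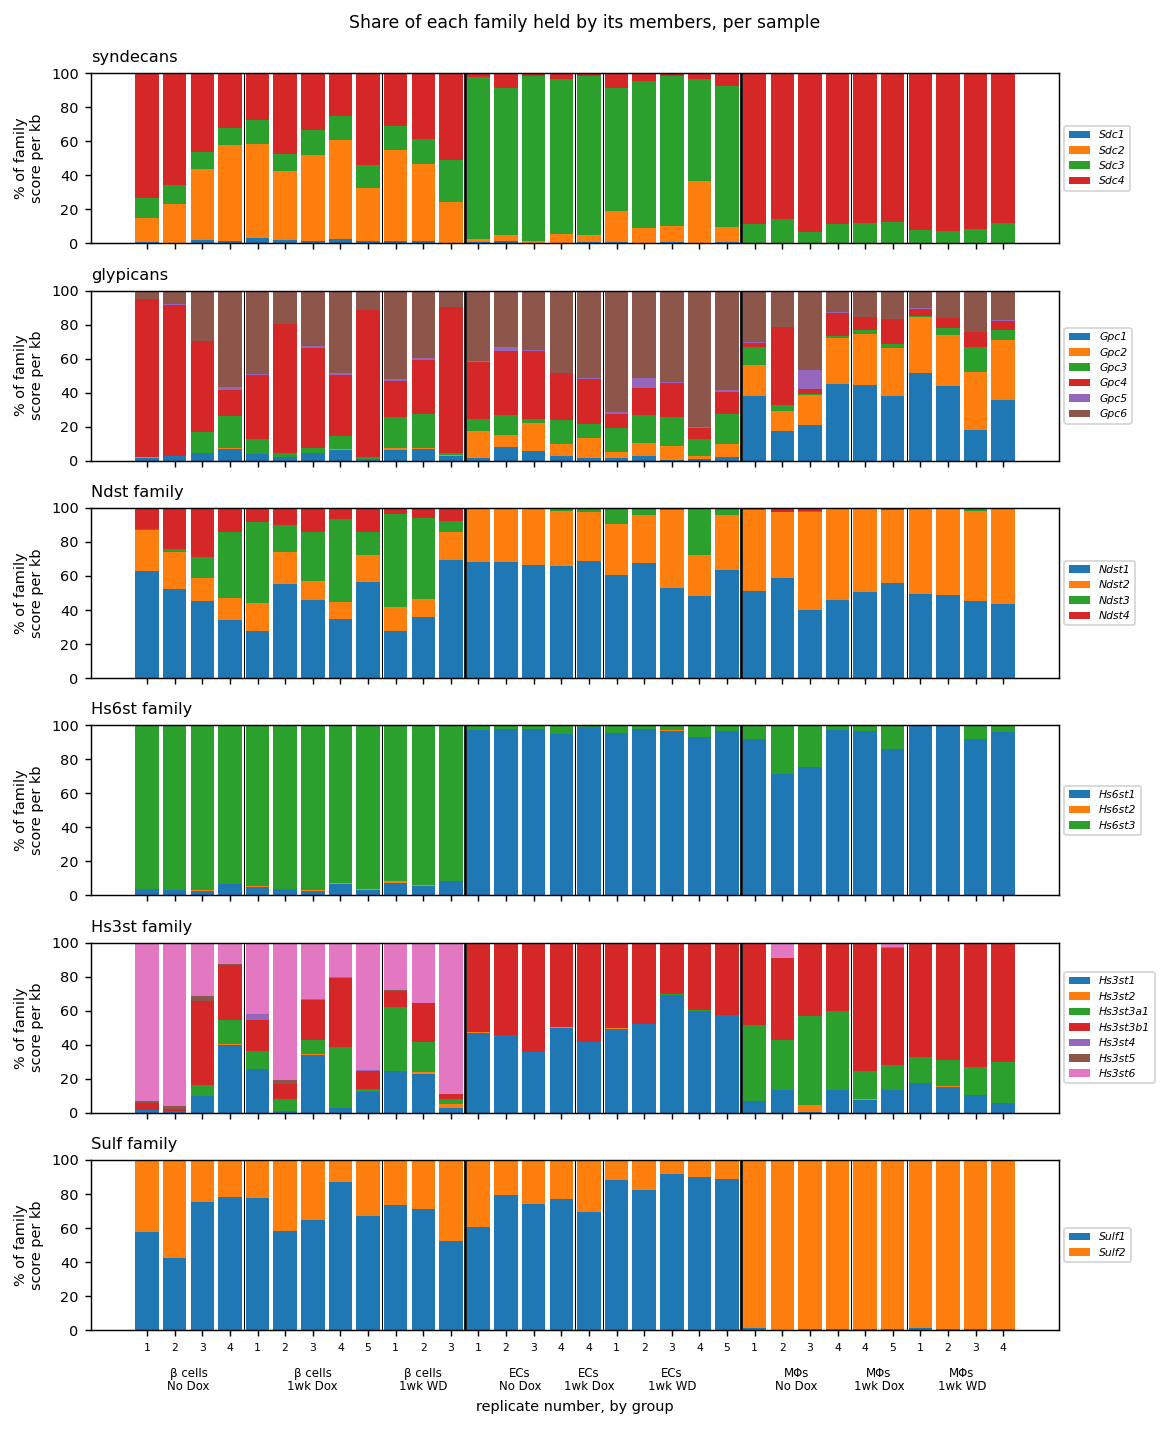
Share of each family's summed score per kb of exon that each member took, in % in each of the 32 samples (stacked bars from 0 to 100%, by cell type and time point, for 6 families). *Sdc4* fills on average 89.2% of the syndecan bars of No Dox MΦs, *Hs6st3* fills 95.8% of the 6-O-sulfotransferase bars of No Dox β cells, and the *Hs3st3a1* part of the MΦ bars shrinks from 43.3% at No Dox to 17.7% at 1wk WD.

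Among the glypicans, lipid-anchored core proteins, *Gpc4* and *Gpc6* were called higher in β cells than in both other cell types at both times. *Gpc4* scored 7836, 6110, 3840 and 1986 in No Dox β cells, 66, 97, 59 and 85 in ECs and 11, 348, 9 and 63 in MΦs. The β cell values lay above all others, and the highest MΦ value came from replicate 2, the MΦ library with the largest β cell marker sum (47759). *Gpc4* was 57.3-fold lower in ECs (log2 -5.84, SE 0.95, adjusted p = 0.000332) and 108-fold lower in MΦs (log2 -6.76, SE 0.95, adjusted p = 9.47e-05) than in β cells. Over all alternatives run, the MΦ difference lay between log2 -7.79 and -5.92. *Gpc6* spread widely in No Dox β cells, at 1478, 1984, 7596 and 26039, again higher in the replicates with the high stromal sums. It was 16.1-fold lower in ECs than in β cells (log2 -4.01, SE 0.77, adjusted p = 0.00107). This log2 difference was -5.53 without β cell replicates 1 and 2 and -2.49 without replicates 3 and 4, and that of *Gpc4* was -5.18 and -6.50. *Gpc1* and *Gpc2* were called lower in ECs than in MΦs at both times, by 13.7-fold (adjusted p = 0.000592) and 3.62-fold (adjusted p = 0.00399) at No Dox. *Gpc2* shares 3221 exon bases on the same strand with *Gal3st4*, a sugar sulfotransferase gene that was itself higher in MΦs (29 to 152) than in ECs (2 to 10), so reads of the pair may not be separable and the *Gpc2* values are uncertain. *Gpc5* was at 30 or less in ECs and MΦs and at 1 to 193 in β cells.

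The chain polymerases were expressed in all 3 cell types. *Ext1*, one of the pair of enzymes that together lengthen the chain, scored 30779, 20034, 20711 and 23080 in No Dox MΦs, 11588, 9269, 6796 and 11704 in ECs, and 5964 to 9840 in β cells. It was 3.15-fold higher in MΦs than in β cells (log2 1.66, SE 0.22, adjusted p = 6.36e-05) and 2.42-fold lower in ECs than in MΦs (log2 -1.28, SE 0.22, adjusted p = 0.000499). ECs and β cells overlapped for *Ext1* (log2 0.38, 95% interval -0.10 to 0.86, adjusted p = 0.172). *Ext2*, its partner, was not called between any cell types at No Dox, with log2 differences of -0.07 (ECs against β cells), 0.41 (ECs against MΦs) and -0.49 (MΦs against β cells), whose 95% intervals reached from -1.05 to 0.98 in all. *Extl3*, which adds the first sugar that commits the chain to heparan sulfate, scored 7201, 7865, 8098 and 7338 in No Dox ECs. Per kb of exon it had the highest mean of the members in ECs, 1275.8 ± 71.21 (SD, n = 4), which did not stand apart from *Ext1* at 1218.2 ± 287 per kb. *Extl3* was 2.49-fold higher in MΦs than in β cells (adjusted p = 0.00311), but under 2-fold without β cell replicate 2 (log2 0.98) or without replicates 1 and 2 (log2 0.75). *Extl2*, described as able to end chain growth, was called lower in ECs than in β cells at both times, by 2.86-fold at No Dox (adjusted p = 0.00666) and 2.25-fold at 1wk WD (adjusted p = 0.01). *Extl1* passed 100 in 3 samples, which were No Dox β cell replicates 3 and 4 (158 and 106) and No Dox MΦ replicate 2 (123). These libraries also had the highest acinar marker sums of all samples (12296279, 9038143 and 11378193), and the part of acinar RNA was not tested.

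Of the enzymes that start chain sulfation, *Ndst1* and *Ndst2*, the pair expressed in most tissues, took 67.2% and 31.7% of the family's score per kb in No Dox ECs and 48.9% and 49.6% in MΦs. In β cells *Ndst1* took 48.8%, *Ndst4* 19.9%, *Ndst2* 17.9% and *Ndst3* 13.4%. The *Ndst3* share ran from 0.469% to 38.9% over the No Dox β cell libraries. *Ndst1* scored 4455, 4449, 4452 and 4429 in No Dox ECs, a mean of 673.98 ± 1.782 per kb of exon (SD, n = 4), the third highest in ECs. This place did not stand apart from that of *Hs2st1* at 672.19 ± 40.9 per kb. *Ndst1* was not called between cell types at No Dox, with 0.52 on the log2 scale for ECs against MΦs (95% interval 0.07 to 0.97, adjusted p = 0.0622). *Ndst2* was 2.46-fold higher in MΦs than in β cells (log2 1.30, SE 0.19, adjusted p = 0.000148), and 2.7-fold at 1wk WD (adjusted p = 3.9e-05). *Ndst4*, a form of more restricted expression, scored 1062, 1612, 2576 and 1638 in No Dox β cells, 1, 3, 4 and 5 in ECs and 8, 186, 114 and 10 in MΦs. Its 3 ranges did not overlap, and it was 417-fold lower in ECs than in β cells (log2 -8.70, SE 0.92, adjusted p = 1.41e-05). *Ndst3* scored 32, 114, 846 and 3526 in No Dox β cells, following the stromal sums. *Glce*, the epimerase, and *Hs2st1*, the 2-O-sulfotransferase, were present in every sample, at 603 to 2570 and 2134 to 5196. Of these 2 genes, *Glce* was called in one comparison, 2.28-fold higher in ECs than in MΦs at 1wk WD (adjusted p = 0.00016).

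The 6-O-sulfotransferases, whose sulfate groups matter for FGF and VEGF binding, split by cell type. *Hs6st3* scored 29575, 30917, 15987 and 7669 in No Dox β cells, 15, 15, 12 and 32 in ECs and 142, 555, 260 and 32 in MΦs. β cell values lay far above the rest. *Hs6st3* was about 1010-fold lower in ECs (log2 -9.97, SE 0.76, adjusted p = 1.32e-06) and 113-fold lower in MΦs (log2 -6.82, SE 0.76, adjusted p = 1.69e-05) than in β cells. Without β cell replicates 1 and 2 these log2 differences were -9.25 and -6.10, and without replicates 3 and 4 they were -10.70 and -7.55. At 1wk WD the differences were 522-fold (adjusted p = 4.28e-07) and 351-fold (adjusted p = 1.01e-06). The *Hs6st3* scores of MΦs were highest in No Dox replicate 2, where β cell markers were also highest, and the part of β cell RNA in those scores was not tested. *Hs6st1*, the widely expressed form, scored 1241 to 3053 in No Dox β cells, 1493 to 1625 in ECs and 2116 to 4161 in MΦs, and was called lower in ECs than in MΦs at both times (2.06-fold with adjusted p = 0.0121, and 3.06-fold with adjusted p = 4.11e-05). *Hs6st3* took 95.8% ± 1.77 (SD, n = 4) of the family's score per kb in β cells, while *Hs6st1* took 96.9% ± 1.51 in ECs and 84% ± 12.5 in MΦs. The *Hs6st3* gene model has a coding length of 1413 bases and no UTR, so its value per kb rests on the coding part alone, and whether reads of its UTRs entered the score was not tested. Without the length correction its share in No Dox β cells was still 89.6%. With the correction *Hs6st3* had the highest mean score per kb of the members in β cells, 14888 ± 7910 (n = 4), ahead of *Gpc4* at 1864.6 ± 966.4 and *Sdc4* at 1126.8 ± 300.6, and the ranges of the last pair overlapped. *Hs6st2* passed 100 in β cells alone, up to 450 at 1wk WD.

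The 3-O-sulfotransferases add the rarest sulfate group, best known for the antithrombin site of heparin. *Hs3st6* scored 682, 573, 145 and 98 in No Dox β cells, 1, 2, 1 and 1 in ECs and 1, 38, 1 and 1 in MΦs. It was 124-fold lower in ECs (log2 -6.95, SE 0.99, adjusted p = 0.000132) and 65.3-fold lower in MΦs (log2 -6.03, SE 0.99, adjusted p = 0.000317) than in β cells. Without β cell replicates 1 and 2 these log2 differences were -5.76 and -4.84, and without replicates 3 and 4 they were -8.14 and -7.22. Over all alternatives run, the MΦ difference lay between log2 -7.22 and -3.47. *Hs3st1*, which makes the antithrombin type of site, scored 314, 331, 236 and 330 in No Dox ECs and 55, 93, 2 and 96 in MΦs. The groups did not overlap, but the difference was not called (log2 3.10, SE 1.27, adjusted p = 0.0684). At 1wk WD it was 7.21-fold higher in ECs than in MΦs (log2 2.85, SE 0.53, adjusted p = 0.000426). *Hs3st3b1* did not separate ECs from MΦs at No Dox, at 714 to 934 and 623 to 1086 (log2 difference 0.00, 95% interval -1.99 to 1.99). Its relative *Hs3st3a1* was at 656, 366, 1058 and 590 in No Dox MΦs and at 1, 4, 3 and 1 in ECs, 208-fold lower in ECs (log2 -7.70, SE 1.43, adjusted p = 0.000873). *Hs3st3a1* was also 34.4-fold higher in MΦs than in β cells at No Dox (log2 5.10, SE 1.43, adjusted p = 0.00987), where the β cell scores were 1, 1, 85 and 313. Without β cell replicates 1 and 2 this log2 difference was 1.92, and without replicates 3 and 4 it was 8.28. Where one group lies near the floor of 1, the fold depends on the pseudocount. With a pseudocount of 20 the No Dox log2 difference was -3.82 for *Hs3st6* between ECs and β cells and -4.86 for *Hs3st3a1* between ECs and MΦs. *Hs3st5* was at 41 or less everywhere.

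Among the editing enzymes MΦs carried *Sulf2* and *Hpse*, and ECs carried *Sulf1*. *Sulf2*, a secreted sulfatase that removes 6-O-sulfates, scored 11874, 10493, 10056 and 10352 in No Dox MΦs, 771, 398, 367 and 374 in ECs and 86, 77, 879 and 1732 in β cells. It was 33.5-fold higher in MΦs than in β cells (log2 5.06, SE 0.85, adjusted p = 0.000364; log2 3.11 without β cell replicates 1 and 2 and 7.02 without replicates 3 and 4) and 23.5-fold lower in ECs than in MΦs (log2 -4.55, SE 0.85, adjusted p = 0.00091). Its mean of 1838 ± 138.8 per kb (SD, n = 4) was the third highest of the members in MΦs, after *Sdc4* at 8786.8 ± 1217 and *Ext1* at 2928.2 ± 610.1. This place did not stand apart from that of *Extl3* at 1682.8 ± 299.7 per kb. *Hpse*, the endoglucuronidase that cuts the chain, scored 639, 616, 841 and 508 in No Dox MΦs, 1, 2, 5 and 2 in ECs and 52, 7, 8 and 3 in β cells. MΦs stood 57.7-fold above β cells (log2 5.85, SE 0.72, adjusted p = 3.59e-05), and 199-fold above ECs (log2 -7.64 for ECs against MΦs, SE 0.72, adjusted p = 4.05e-06). The first of these *Hpse* differences was 6.74 on the log2 scale without β cell replicates 1 and 2 and 4.96 without replicates 3 and 4. With a pseudocount of 20 the second was -4.88 on the log2 scale. At 1wk WD all 5 EC samples were listed at 1 for *Hpse*. *Sulf1*, the other sulfatase, scored 934, 1204, 833 and 981 in No Dox ECs and 93, 20, 45 and 64 in MΦs, 19.9-fold higher in ECs (log2 4.31, SE 1.25, adjusted p = 0.0148). In β cells *Sulf1* was 92 and 45 in No Dox replicates 1 and 2 and 2108 and 4974 in replicates 3 and 4. Its direction between ECs and β cells turned on these libraries: the log2 difference was 1.09 (adjusted p = 0.499) over all 4, -1.72 (adjusted p = 0.0218) without replicates 1 and 2, and 3.91 (adjusted p = 0.000149) without replicates 3 and 4. That of *Sulf2* turned as well, at -1.44 (adjusted p = 0.00393) without replicates 1 and 2 and 2.46 (adjusted p = 2.38e-05) without replicates 3 and 4. *Sulf1* took 72.7% ± 8.4 of the summed *Sulf1* and *Sulf2* score per kb in No Dox ECs, and *Sulf2* took 99.4% ± 0.316 in MΦs (SD, n = 4 each). No member was called higher in ECs than in both other cell types at both times, whereas 5 were for MΦs (*Hpse*, *Sulf2*, *Sdc4*, *Gpc2* and *Ext1*) and 6 for β cells (*Hs6st3*, *Hs3st6*, *Gpc4*, *Ndst4*, *Sdc2* and *Gpc6*). These are counts out of 31 members tested at both times, and the same rule was met by 6.27% of all genes for ECs, 9.28% for MΦs and 11% for β cells.

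In MΦs, *Sdc3* was higher and *Hs3st3a1* lower at 1wk Dox than at No Dox. Both 1wk Dox libraries lie in the separate run of identifiers, whose part in these differences cannot be told apart from that of doxycycline. The fall of *Hs3st3a1* was also called 1 week after withdrawal. At 1wk Dox, 2 of 28 members tested were called, 1 higher and 1 lower, against 2.26% of all genes, and 6 had an unadjusted p under 0.05. The median log2 difference over the 28 was 0.16, against 0.03 over all genes tested. At 1wk WD 1 of 28 was called, against 0.626% of all genes, and 9 had an unadjusted p under 0.05. Their median log2 difference was 0.10, against 0.00. None of 28 was called between 1wk WD and 1wk Dox, where 0.0866% of all genes were called by limma, and 3 members had an unadjusted p under 0.05.

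*Hs3st3a1* lies on chromosome 11 at 64248834 to 64336343 (mm9, plus strand), and its relative *Hs3st3b1* at 63699294 to 63735792 (minus strand) on the same chromosome. Both encode enzymes that make the 3-O-sulfated site used by herpes simplex virus glycoprotein D, and their coding parts are closely alike. Promoters of both are shown because *Hs3st3a1* was called in MΦs and *Hs3st3b1* was not, and those of *Sdc3* (chromosome 4, 130348452 to 130382234, plus strand) and *Sdc4* (chromosome 2, 164249747 to 164269387, minus strand) because these are the 2 syndecans whose MΦ scores at 1wk Dox all lay above those at No Dox. Each runs 5′ to 3′ from 250 bases before to 50 bases after the RefSeq start in build GRCm38.p6. Capitals mark GGGCGG or its complement CCGCCC, a GC box, and CACGTG, an E-box.
Hs3st3a1 (chr11:64435082-64435381, plus strand): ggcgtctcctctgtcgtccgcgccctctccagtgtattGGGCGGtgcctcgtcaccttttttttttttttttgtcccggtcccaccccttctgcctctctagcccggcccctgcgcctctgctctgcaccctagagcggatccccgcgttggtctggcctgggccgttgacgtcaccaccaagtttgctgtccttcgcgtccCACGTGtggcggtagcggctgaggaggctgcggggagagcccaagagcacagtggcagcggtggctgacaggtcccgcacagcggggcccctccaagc
Hs3st3b1 (chr11:63922235-63922534, minus strand): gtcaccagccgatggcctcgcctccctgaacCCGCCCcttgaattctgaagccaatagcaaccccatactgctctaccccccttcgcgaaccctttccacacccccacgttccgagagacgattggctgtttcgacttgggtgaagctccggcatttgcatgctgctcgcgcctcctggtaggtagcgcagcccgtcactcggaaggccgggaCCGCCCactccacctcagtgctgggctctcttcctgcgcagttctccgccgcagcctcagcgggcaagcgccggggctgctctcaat
Sdc3 (chr4:130792287-130792586, plus strand): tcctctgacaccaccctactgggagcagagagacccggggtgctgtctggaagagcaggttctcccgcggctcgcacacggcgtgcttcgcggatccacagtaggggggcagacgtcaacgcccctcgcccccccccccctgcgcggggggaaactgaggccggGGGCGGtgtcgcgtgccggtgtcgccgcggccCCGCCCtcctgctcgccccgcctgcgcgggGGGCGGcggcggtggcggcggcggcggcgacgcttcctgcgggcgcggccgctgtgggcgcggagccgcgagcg
Sdc4 (chr2:164443139-164443438, minus strand): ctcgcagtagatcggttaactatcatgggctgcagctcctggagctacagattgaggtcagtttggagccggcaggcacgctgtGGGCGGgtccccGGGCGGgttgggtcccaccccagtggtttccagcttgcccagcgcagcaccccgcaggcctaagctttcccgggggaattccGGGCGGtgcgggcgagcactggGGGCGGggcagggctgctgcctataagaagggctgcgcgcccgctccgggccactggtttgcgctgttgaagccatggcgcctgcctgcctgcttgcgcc

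The *Hs3st3a1* promoter held 1 GC box and the 1 E-box of the 4, *Hs3st3b1* held 2 GC boxes, *Sdc3* held 3 and *Sdc4* held 4. RefSeq gave promoters for 26 of the 35 members, 30 promoters in all. GGGCGG was found on either strand of 21 of these (70%), against 35.7% of 32851 mouse promoters of the same length. CACGTG was in 3 of 30 (10%) and in 7.15% of all, and TATAAA was in 3 of 30 and in 13.6% of all. TGANTCA, the AP-1 motif, was in 0 of 30 and in 7.81% of all promoters. The members' promoters had a median of 22 CpGs and 66.5% G and C, against 7 CpGs and 52.7% over all promoters. These matches describe the letters of the windows and were not tested for binding.

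*Hs3st3a1* scored 656, 366, 1058 and 590 in No Dox MΦs, 135 and 152 at 1wk Dox, then 176, 140, 142 and 216 after withdrawal (1wk WD). Every No Dox value lay above every later value. It fell 4.32-fold at 1wk Dox (log2 -2.11, SE 0.39, 95% interval -2.95 to -1.28, adjusted p = 0.013) and was 3.74-fold lower at 1wk WD (log2 -1.90, SE 0.32, 95% interval -2.58 to -1.22, adjusted p = 0.0179). Between 1wk WD and 1wk Dox it differed by 0.21 on the log2 scale (95% interval -0.63 to 1.05). *Hs3st3b1* scored 867, 753, 1086 and 623 at No Dox, 755 and 913 at 1wk Dox, then 945, 770, 798 and 794 after withdrawal (1wk WD), with overlapping groups. Its log2 difference was 0.03 at 1wk Dox (95% interval -0.47 to 0.52) and 0.02 at 1wk WD (-0.39 to 0.42). The share of *Hs3st3a1* in the 3-O-sulfotransferase score per kb of MΦs was 43.3% ± 9.84 (SD, n = 4) at No Dox, 14.4% and 16.7% in the 1wk Dox samples and 17.7% ± 3.99 (n = 4) at 1wk WD. The share of *Hs3st3b1* went from 44.7% ± 4.24 to 69.4% ± 2.61 over the same groups. Of the 3890 distinct 50-base sequences in *Hs3st3a1* transcripts, 416 (10.7%) are also in *Hs3st3b1*, so single reads there match both genes, and how the read pairs were assigned was not stated. *Hs3st3a1* also overlaps *F930015N05Rik* on the opposite strand over 479 exon bases, and the kit was not stated to keep strand. In ECs *Hs3st3a1* was at 1 to 7, below the minimum, so a fall could not have been seen there and the changes of the 2 cell types were not compared.

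*Sdc3* scored 7029, 7177, 3883 and 6215 in No Dox MΦs, 14968 and 11936 at 1wk Dox, then 9167, 7758, 7514 and 8734 after withdrawal (1wk WD). The 3 groups did not overlap. It rose 2.26-fold at 1wk Dox (log2 1.18, SE 0.22, 95% interval 0.70 to 1.66, adjusted p = 0.0151). At 1wk WD *Sdc3* was 0.48 above No Dox on the log2 scale (95% interval 0.09 to 0.88, adjusted p = 0.198), and against 1wk Dox the difference was -0.69 (95% interval -1.18 to -0.21, adjusted p = 0.32). *Sdc4*, the syndecan with the most score per kb in MΦs, scored 24429, 18416, 25216 and 21459 at No Dox, 46600 and 37028 at 1wk Dox, then 47668, 43582, 36617 and 28546 after withdrawal (1wk WD). Its No Dox values lay below all later ones. The 1wk Dox difference of 1.87-fold (log2 0.90, SE 0.22, adjusted p = 0.0354) was under the 2-fold limit of a call, and the 1wk WD difference of 1.73-fold had an adjusted p of 0.0509. Of the other members that set MΦs apart, *Sulf2*, *Hpse* and *Ext1* differed from No Dox by log2 0.13, 0.16 and -0.26 at 1wk Dox and by 0.26, -0.07 and -0.06 at 1wk WD, and none was called. *Gpc2*, whose scores are uncertain for the overlap with *Gal3st4*, was at 239, 287, 177 and 392 at No Dox, 400 and 428 at 1wk Dox, then 471, 313, 388 and 399 after withdrawal (1wk WD). Its 1wk Dox values lay above No Dox, but neither the log2 difference of 0.65 (adjusted p = 0.269) nor that of 0.56 at 1wk WD (adjusted p = 0.295) was called. MΦ marker sums were 273999 to 355906 at No Dox, 368742 and 448419 at 1wk Dox, then 371897 to 456335 after withdrawal (1wk WD). The genes of this sum did not move together. *Csf1r* was at 38674 to 65946 at No Dox and at 88375 and 78271 at 1wk Dox. *Cd68* (11219 to 12035, then 20584 and 17197), *Aif1* (2270 to 3102, then 6155 and 4521) and *Fcgr1* (2309 to 3046, then 6867 and 5516) were also higher without overlap. *Ptprc* was at 27100 to 44259 and at 29520 and 28526. *Itgam*, which encodes the sort marker CD11b, was at 29382 to 45478 and at 21379 and 22708, the single gene lower without overlap. The part of these shifts in the *Sdc3* and *Hs3st3a1* differences was not tested. Acinar marker sums of MΦs were 101049, 11378193, 27307 and 1898410 at No Dox, 973 and 3370 at 1wk Dox, then 202359, 2545, 2086 and 1500 after withdrawal. Both 1wk Dox sums lay below all No Dox sums, and the part of acinar RNA in these differences was not tested.

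With 2 libraries at 1wk Dox, the MΦ calls at that time leaned on each of them. Without 1wk Dox replicate 4 or 5 the adjusted p was 0.329 or 0.0833 for *Hs3st3a1* and 0.384 or 0.0665 for *Sdc3*, and without No Dox replicate 3 the *Sdc3* difference was 0.98 on the log2 scale. At 1wk WD the *Hs3st3a1* call was lost without 1wk WD replicate 2 (adjusted p = 0.0787) or 3 (adjusted p = 0.0725). With no minimum score or no variance trend the adjusted p at 1wk Dox was 0.0517 or 0.0562 for *Hs3st3a1* and 0.0725 or 0.0738 for *Sdc3*, and at 1wk WD 0.0877 or 0.0749 for *Hs3st3a1*. Fitting only the 1wk Dox and No Dox MΦs also ended both calls (adjusted p = 0.0708 for *Hs3st3a1* and 0.0831 for *Sdc3*). With the replicate number as a block, none of the MΦ calls at 1wk Dox or 1wk WD was kept.

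**Figure D4:**
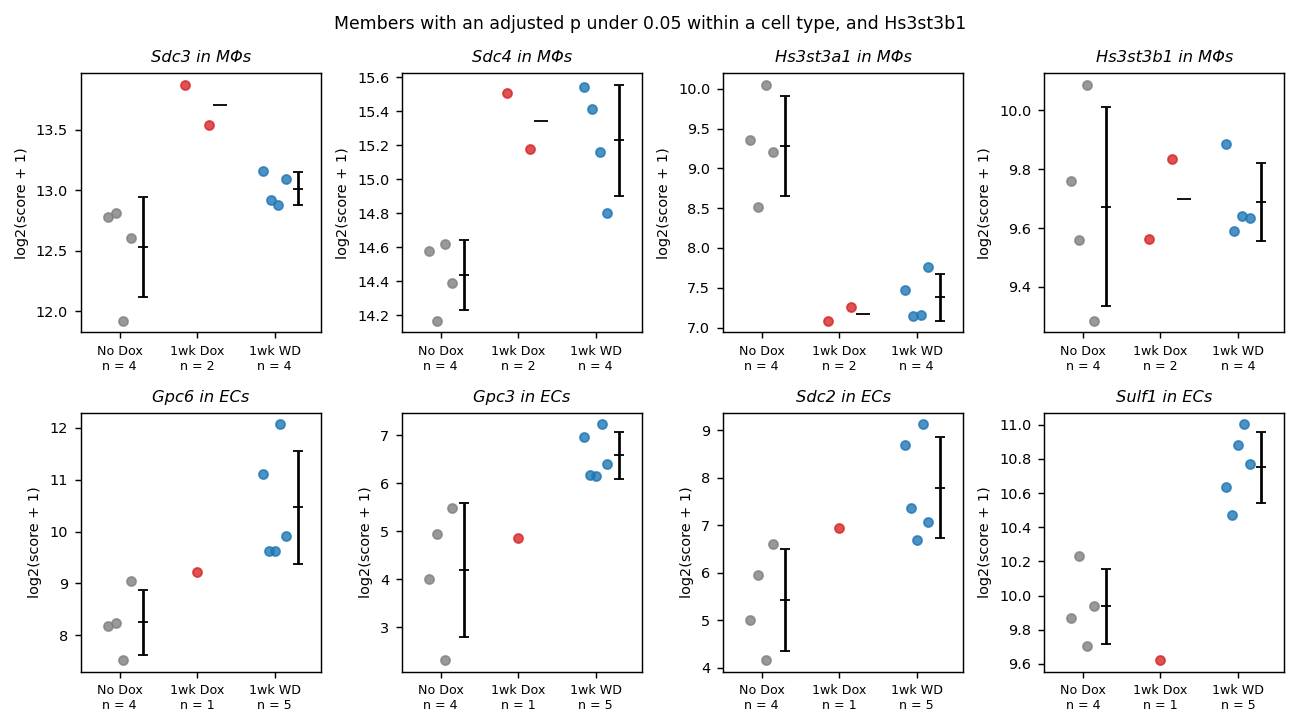
Log2(score + 1) of the members with an adjusted p under 0.05 within a cell type, and of *Hs3st3b1*, 1 point per sample by time point, with the group mean and SD as a bar (mean alone for 2 samples). *Hs3st3a1* in MΦs drops from scores of 366 to 1058 at No Dox to 135 to 216 afterwards, *Hs3st3b1* stays between 623 and 1086, and *Gpc6*, *Gpc3* and *Sdc2* in ECs lie above No Dox at 1wk WD.

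In ECs 1 week after doxycycline withdrawal, 3 core proteins rose together. *Gpc6*, *Gpc3* and *Sdc2* were called out of 22 members tested, all of them higher, against 1.76% of all genes tested, and 9 members had an unadjusted p under 0.05. The median log2 difference over the 22 was 0.13, against 0.00 over all genes. *Gpc6* (chromosome 14, 117324519 to 118378751) scored 290, 302, 183 and 527 at No Dox and 2196, 789, 786, 4294 and 962 at 1wk WD. It was 4.65-fold higher (log2 2.22, SE 0.47, 95% interval 1.19 to 3.24, adjusted p = 0.0232). *Gpc3*, the X-linked glypican known from overgrowth syndromes (chromosome X, 49625603 to 49967127), scored 15, 30, 4 and 44 at No Dox and 124, 71, 70, 149 and 83 at 1wk WD. That was 5.24-fold higher (log2 2.39, SE 0.57, 95% interval 1.15 to 3.63, adjusted p = 0.0377). *Sdc2* (chromosome 15, 32850478 to 32964485) scored 31, 61, 17 and 97 at No Dox and 414, 165, 103, 559 and 134 at 1wk WD, a 5.14-fold difference (log2 2.36, SE 0.57, 95% interval 1.12 to 3.60, adjusted p = 0.0398). None of the 3 overlapped between the time points. *Sdc2* went from 2.65% of the syndecan score per kb at No Dox to 16.4% at 1wk WD, and *Gpc6* from 39.3% to 63% of the glypican score.

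The EC libraries with the largest of these scores also had the largest stromal sums. The 10 pericyte and stroma genes, all of them above 1 in some EC sample, summed to 5822, 10468, 5637 and 12607 at No Dox and to 48958, 20495, 16858, 70818 and 22314 at 1wk WD, without overlap. *Rgs5*, a pericyte gene, made up most of this, at 4449 to 9981 and 14734 to 63203. In 1wk WD replicates 1 and 4, with the 2 highest sums, *Gpc6* was 2196 and 4294 and *Sdc2* was 414 and 559. Without both of these libraries, a choice made after seeing the data, *Gpc6* was still called (log2 1.47, adjusted p = 0.0221), while *Gpc3* (log2 2.05, adjusted p = 0.138) and *Sdc2* (log2 1.62, adjusted p = 0.129) were not. The 1wk WD libraries left, with sums of 20495, 16858 and 22314, still lay above all No Dox sums, so this choice leaves the stromal difference in place. The part of pericyte RNA in the *Gpc6*, *Gpc3* and *Sdc2* differences was not tested. Acinar sums of ECs also differed without overlap, at 101445, 1734689, 86538 and 63882 for No Dox and 62819, 672, 1090, 1062 and 1058 for 1wk WD. The endothelial sums were 568252, 568226, 605022 and 583857 at No Dox, then 477673, 470583, 439955, 484273 and 421682 after withdrawal (1wk WD), again without overlap. The genes of this sum did not all move. *Kdr* (92107 to 105159, then 39326 to 61402) and *Flt1* (127207 to 138669, then 72250 to 99647) were lower without overlap. So were *Tie1* (15864 to 18478, then 12189 to 15665) and *Egfl7* (13833 to 18150, then 8331 to 13032). *Pecam1*, which encodes the sort marker CD31, was at 61523 to 75751 and then at 64455 to 79350, and *Cdh5*, *Tek*, *Esam*, *Emcn* and *Plvap* overlapped as well. Their part in the EC differences was not tested.

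**Figure D5:**
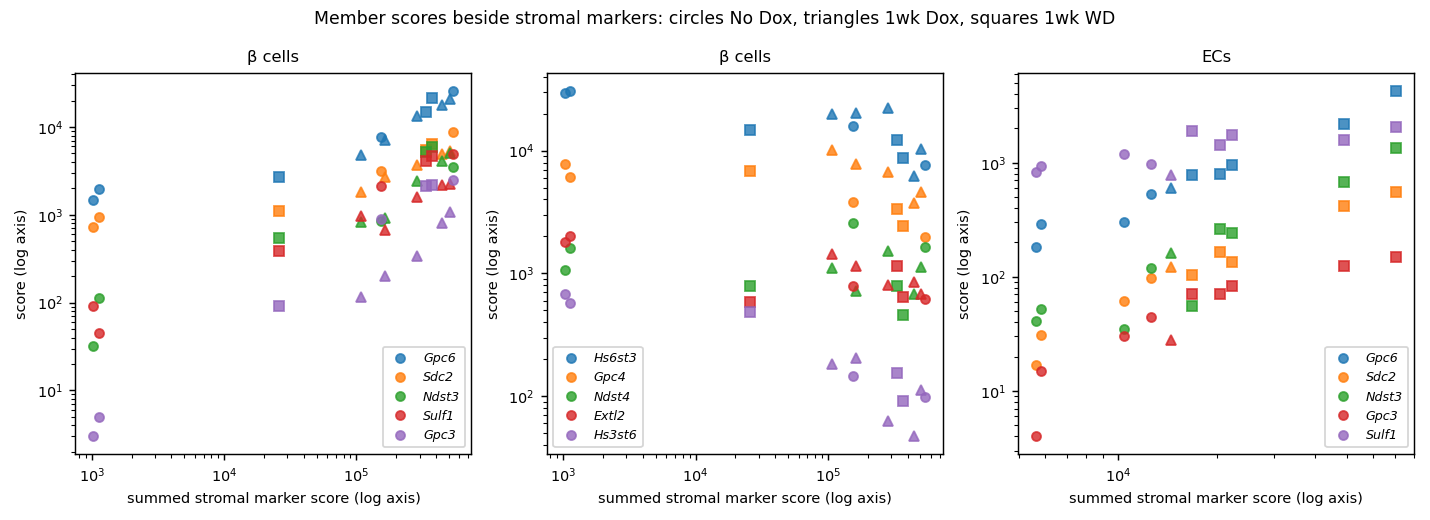
Member score against the summed score of 10 pericyte and stroma genes (both axes log) in each β cell and EC sample, with 1 colour per gene, circles for No Dox, triangles for 1wk Dox and squares for 1wk WD. EC samples at 1wk WD lie at marker sums of 16858 to 70818, above the No Dox ECs at 5637 to 12607, and No Dox β cell replicates 1 and 2 lie at 1031 and 1125, far below the other β cell samples.

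*Sulf1* in ECs also moved to a level that did not overlap with No Dox, from 934, 1204, 833 and 981 to 1587, 1420, 1885, 2051 and 1749. This was a 1.76-fold difference (log2 0.82, adjusted p = 0.0115), under the 2-fold limit of a call. *Sulf2* went the other way by -0.67 on the log2 scale (adjusted p = 0.142), and the *Sulf1* share of the pair went from 72.7% ± 8.4 (n = 4) to 88.1% ± 3.44 (n = 5) per kb. *Ndst3* had the largest log2 difference of the 22 members, 2.51, but its scores of 52, 35, 41 and 119 at No Dox and 676, 261, 55, 1341 and 244 at 1wk WD overlapped (adjusted p = 0.0763). It was highest in the same libraries 1 and 4. *Extl3*, *Ext1* and *Ndst1*, the members with the highest score per kb in ECs, differed by log2 -0.34, -0.12 and -0.37, and none was called. At 1wk WD *Extl3* scored 6810, 7198, 5257, 3731 and 8302, *Ext1* scored 11881, 9838, 6155, 9134 and 8284, and *Ndst1* scored 4603, 4486, 2324, 2496 and 3961. The EC calls depended on single libraries: without any one of No Dox replicates 1, 2 and 3 none of the 22 members was called, and without 1wk WD replicate 1 or 4 *Gpc6* alone was. With any 1 library left out the log2 difference lay between 1.77 and 2.82 for *Gpc3*, 1.82 and 2.48 for *Gpc6*, and 1.94 and 2.75 for *Sdc2*. With no minimum score or no variance trend the adjusted p was 0.181 or 0.0827 for *Gpc6*, 0.19 or 0.0824 for *Gpc3*, and 0.209 or 0.101 for *Sdc2*.

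The change of *Gpc6* differed between ECs and MΦs by a direct test. *Gpc6* scored 452, 580, 513 and 213 in No Dox MΦs and 169, 193, 318 and 226 at 1wk WD, a log2 difference of -0.90 (95% interval -1.62 to -0.18, adjusted p = 0.19) against the 2.22 of ECs. The difference of the changes was 3.12 (SE 0.66, 95% interval 1.72 to 4.52, adjusted p = 0.0239). It was the 1 of 28 members called in this test, against 1.4% of all genes. Without EC 1wk WD replicates 1 and 4 the difference was 2.37 (adjusted p = 0.0394), without No Dox EC replicate 3 it was 2.87 (adjusted p = 0.0642), and without MΦ 1wk WD replicate 2 it was 3.05 (adjusted p = 0.0525). With no minimum score the adjusted p was 0.0648. Stromal sums rose without overlap in ECs (5637 to 12607, then 16858 to 70818) but overlapped in MΦs (3178 to 6207, then 2963 to 11462). The part of pericyte RNA in the *Gpc6* difference of changes was not tested. *Sdc2* in MΦs was at 61, 60, 95 and 89 at No Dox and at 77, 107, 107 and 93 at 1wk WD, with overlap. *Sdc2*, *Gpc3* and *Sdc3* gave 2.01 (adjusted p = 0.141), 2.15 (adjusted p = 0.371) and -0.99 (adjusted p = 0.0723), so their changes were not shown to differ between the cell types.

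The single EC sample at 1wk Dox allowed no test. Of 21 members that passed the minimum, 2 were past 2-fold higher than the No Dox mean, *Ndst3* (162, log2 1.55) and *Sdc2* (122, log2 1.51), and 0 were past 2-fold lower, where 10.7% of all genes were past 2-fold in either direction. It lay above the No Dox range for 13 members, below it for 4 and within it for 4, but 62.1% of all genes were outside that range in this sample. *Gpc6* was at 596 (No Dox 183 to 527) and *Sulf1* at 788 (No Dox 833 to 1204), and its stromal sum of 14469 was also above the No Dox range.

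In β cells no member was called at any time. At 1wk Dox 0 of 32 members were called by limma, against 0.0122% of all genes, and 2 had an unadjusted p under 0.05. The median log2 difference was 0.12, against 0.03 over all genes. At 1wk WD 0 of 32 were called, against 0% of all genes, and 3 had an unadjusted p under 0.05, with a median of 0.30 against 0.06. Between 1wk WD and 1wk Dox 0 of 32 were called, against 0% of all genes, and 0 had an unadjusted p under 0.05. *Ndst4* scored 1062, 1612, 2576 and 1638 at No Dox, 1133, 716, 1517, 679 and 1105 at 1wk Dox, then 462, 785 and 796 after withdrawal (1wk WD). The 1wk WD values lay below all of No Dox, with a log2 difference of -1.31 (unadjusted p = 0.00346, adjusted p = 0.536). *Hs6st3*, the most β cell-enriched member, scored 10312, 20388, 22071, 6226 and 19864 at 1wk Dox, then 8724, 12137 and 14761 after withdrawal (1wk WD). It differed from No Dox by -0.37 (95% interval -1.42 to 0.68) and -0.66 (95% interval -1.85 to 0.54), with groups that overlapped. *Gpc4* was at 4562, 7813, 6700, 3730 and 10139 at 1wk Dox, then 2416, 3326 and 6780 after withdrawal. *Hs3st6* was at 112, 206, 63, 47 and 184, then 91, 153 and 481, and both genes overlapped with No Dox. *Gpc4* differed by 0.50 (95% interval -0.47 to 1.47) and -0.21 (-1.31 to 0.90), *Sdc4* by -0.44 (-0.96 to 0.08) and -0.08 (-0.67 to 0.51), and *Hs3st6* by -1.37 (-2.98 to 0.23) and -0.53 (-2.36 to 1.29). These intervals include changes of 2-fold in one direction or the other for *Hs6st3*, *Gpc4* and *Hs3st6*.

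Several members followed the stromal sums among the β cell libraries. *Sdc2*, *Gpc6*, *Ndst3* and *Sulf1* were each higher in No Dox replicates 3 and 4 (stromal sums 153817 and 540417) than in replicates 1 and 2 (1031 and 1125), and lower in 1wk WD replicate 3 (25966) than in 1wk WD replicates 1 and 2 (369149 and 335307). In these 1wk WD samples *Gpc6* was 2709 against 21576 and 14696, *Sulf1* was 384 against 4652 and 4083, and *Ndst3* was 546 against 5930 and 5253. At 1wk Dox the 5 stromal sums were 505631, 163347, 285223, 446322 and 107869, and *Gpc6* at 21072, 7165, 13326, 17943 and 4798 had the same order. *Hs6st3* and *Hs3st6* ran the other way, with *Hs3st6* at 682 and 573 in No Dox replicates 1 and 2 and at 145 and 98 in replicates 3 and 4. Acinar markers differed as well, summing to 704687 and 32621 in No Dox β cell replicates 1 and 2 and to 12296279 and 9038143 in replicates 3 and 4. The high acinar and high stromal sums thus lay in the same No Dox libraries, and the part of each was not tested. Without No Dox replicates 1 and 2, 0 of 32 members were called at 1wk Dox or at 1wk WD, against 0.487% and 0.0853% of all genes. Without No Dox replicates 3 and 4, 5 members were called higher at 1wk Dox (*Gpc3*, *Ndst3*, *Hs3st3a1*, *Sulf1* and *Sulf2*) and 6 at 1wk WD (the same 5 genes and *Sdc3*). Of all genes tested in that setting, 7.36% were called at 1wk Dox and 8.74% at 1wk WD, so the counts of 5 and 6 out of 31 members stand against a background far above that over all libraries. In that setting *Ndst3* was at 5.08 (adjusted p = 0.0102) and *Sulf1* at 4.40 (adjusted p = 0.0104) on the log2 scale at 1wk Dox. The 2 remaining No Dox libraries are those with almost no stromal signal. They also had the lower acinar sums and the higher β cell sums (8751584 and 5647945, against 1681031 and 644064 in replicates 3 and 4). The part of each of these in the differences was not tested. Endothelial sums of these 2 libraries were 2315 and 1709, against 59018, 19858, 28073, 6747 and 1569 at 1wk Dox, then 4471, 6828 and 18053 after withdrawal. All but one of the later sums were higher, and the part of endothelial RNA was not tested either.

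The other genes of the pathway are given as counts, to be read against the shares of all genes called in the same comparisons, 2.26% in MΦs at 1wk Dox and 1.76% in ECs at 1wk WD. Of 17 genes for the linker sugars and the sugar or sulfate donors, 2 were called in MΦs at 1wk Dox and none in ECs or β cells at any time. *Slc35b2*, the Golgi transporter of the sulfate donor PAPS, scored 1190, 1149, 1231 and 1119 at No Dox, 3690 and 2578 at 1wk Dox, then 1534, 2359, 2104 and 2124 after withdrawal (1wk WD) in MΦs. It rose at 1wk Dox by 1.40 on the log2 scale (SE 0.20, adjusted p = 0.0049). *Xylt1*, the xylosyltransferase that starts the linker on the core protein, scored 18945, 11054, 15510 and 13883 at No Dox, 5763 and 7149 at 1wk Dox, then 9624, 6943, 7139 and 6826 after withdrawal (1wk WD). It fell by 1.18 on the log2 scale at 1wk Dox (SE 0.21, adjusted p = 0.0115). Neither gene overlapped between No Dox and the later time points in MΦs. The list's median in MΦs at 1wk Dox was -0.15, against 0.03 over all genes.

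Among 8 lysosomal enzymes that degrade heparan sulfate, *Naglu* was called higher in MΦs at 1wk Dox (log2 1.41, adjusted p = 0.0435) and none elsewhere within a cell type. Of 10 other core proteins that carry heparan sulfate at least part of the time, 0 were called within a cell type by limma. *Nrp1*, a VEGF-A co-receptor, was lower in ECs at 1wk WD (52360, 58640, 49617, 52818 and 42710, against 76483 to 90241 at No Dox), a log2 difference of -0.68 (adjusted p = 0.00779) under the 2-fold limit, and its change differed from that of MΦs by -1.14 (adjusted p = 0.00719). Of 15 chondroitin and dermatan sulfate enzymes tested, which act on the other branch from the same linker, *Chst3* was called lower in ECs at 1wk WD, at 116, 75, 80, 80 and 108 against 199, 177, 165 and 190 at No Dox (adjusted p = 0.0298). Of 11 growth factor receptors that bind heparan sulfate or whose ligands do, *Met*, the HGF receptor, was called higher in ECs at 1wk WD, at 1584, 1508, 1411, 2612 and 2225 against 757, 926, 794 and 948 (log2 1.09, SE 0.18, adjusted p = 0.0102). None of the heparan sulfate-binding growth factors and none of the core protein sheddases was called within a cell type.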

How the data were processed

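RNA of sorted islet cells was amplified (NuGEN Ovation) and sequenced as paired 50 bp reads. The authors aligned the reads to mm9 with TopHat2 2.0 and deposited 1 table of scores, read values normalized by TMM in Avadis NGS with a floor of 1. The annotation version and strand setting are not given in the sources used here. Of 38 sample columns, 6 matched no sample analysed here and were not used. In 25 entries, symbols turned into dates were restored from gene IDs. Exon lengths came from GENCODE M1, in which 34 of 35 members had the same coordinates, and promoters from RefSeq (GRCm38.p6).

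Groups came from the labels, and no 2 samples were identical. Log2 of the score plus 1 was fitted across all genes that reached a mean of 20 in 1 or more of the groups fitted, with limma 3.58.1 (R 4.3.3, empirical Bayes with trend) and Benjamini-Hochberg adjustment. Calls needed a 2-fold change and an adjusted p under 0.05. The code was tested on simulated data. Depth is unknown, so no counting error is given. Alternatives were a pseudocount of 20, no minimum or a minimum of 200, median-of-ratios scaling, no trend, array weights, other sample sets, the replicate number as a block, and leaving out libraries.

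The members and gene lists were chosen with earlier results of these data known. By rule, values in every sample of the groups concerned are given for members called within a cell type or in the difference of changes, for the 3 with the highest score per kb in each cell type at No Dox, and for the 2 furthest above both other cell types at both times. Further members and genes were named by role after their values were seen. Figures used Python 3.11.15, pandas 2.3.3, numpy 2.4.6 and matplotlib 3.10.9.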

Additional observations from a re-analysis of the deposited data

Results flagged for a closer look

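One sample stood apart from the rest of its group in 4 of the 84 groups of 4 or 5 samples checked for the named members, by the ratio of its gap to the group's range, and chance alone would mark about 1 group in 20. *Gpc4* in MΦs at 1wk WD was highest in replicate 3, at 31 against 20, 20 and 20. *Hpse* in β cells at 1wk Dox was lowest in replicate 4, at 1 against 21, 55, 47 and 22. *Hs3st6* in No Dox MΦs was highest in replicate 2, at 38 against 1, 1 and 1, and that library also had the highest β cell (47759) and acinar (11378193) marker sums of the MΦ samples. *Sulf2* in No Dox ECs was highest in replicate 1, at 771 against 398, 367 and 374. The change of *Gpc6* from No Dox to 1wk WD differed between ECs and MΦs in a test of the difference itself, by 3.12 on the log2 scale (limma, adjusted p = 0.0239). This call was lost with no minimum score (adjusted p = 0.0648), without No Dox EC replicate 3 (0.0642) and without 1wk WD MΦ replicate 2 (0.0525). Stromal sums of the ECs also rose without overlap, and their part in it was not tested.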

How the results depend on the processing

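Calls within a cell type were more often lost than reversed. Over 15 counts of called members, 258 of 286 alternative values lay within 1.5 times the reported count and 28 did not. Of 71 calls on named members, 54 held under every alternative run, all of them between cell types. Of the 7 calls within a cell type or in the difference of changes 0 did, each being lost under 3 to 10 alternatives. None of 1730 alternative values reversed the direction of a result, but only named members with an adjusted p under 0.1 were checked. Among results outside this check, *Sulf1* and *Sulf2* between ECs and β cells at No Dox changed direction with the β cell libraries left out. With no minimum score, or with no trend, 0 members were called in ECs at 1wk WD (reported 3), in MΦs at 1wk Dox (2) and in MΦs at 1wk WD (1), and the difference of changes had 0 calls with no minimum and 2 with a pseudocount of 20. Fitting only the 2 groups compared gave 0 calls in MΦs at 1wk Dox. Without No Dox β cell replicates 3 and 4 there were 5 calls at 1wk Dox and 6 after withdrawal, where 7.36% and 8.74% of all genes were called. Without replicates 1 and 2 there were 0 at both times, where 0.487% and 0.0853% of all genes were called. Without 1wk WD EC replicates 1 and 4 there was 1 call in ECs. With 1 library left out, the counts ranged from 0 to 3 in ECs at 1wk WD, 0 to 2 in MΦs at 1wk Dox, 0 to 1 in MΦs at 1wk WD, 0 to 3 in the difference of changes, and 2 to 4 for the single 1wk Dox EC sample. Same-numbered samples did not deviate together throughout: 3 of 10 pairs in β cells, 2 of 4 in ECs and 1 of 6 in MΦs had a correlation over 0.1, as did 2 of 12 pairs between cell types at No Dox and 4 of 10 at 1wk WD. Acinar sums were highest in replicate 1 of all 3 cell types at 1wk WD (568144, 62819 and 202359) and in replicate 2 of No Dox ECs and MΦs. The labels do not say what an equal number marks, and whether it marks a shared preparation was not tested further. With the replicate number as a block, ECs at 1wk WD had 4 calls, MΦs had 0 both at 1wk Dox (adjusted p = 0.248 for *Hs3st3a1* and 0.194 for *Sdc3*) and after withdrawal (0.0573 for *Hs3st3a1*), β cells had 0, and the cell type comparisons had 11 to 23. Depth cannot be read from the scores, so members near the floor of 1 were not detectable in these data, which does not show that they are absent.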

Other observations

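Genes outside the members separated the cell types as well. *Hspg2*, which encodes the basement membrane proteoglycan perlecan, scored 118122 to 126260 in No Dox ECs and 13 to 708 in No Dox MΦs (log2 9.70 for ECs against MΦs, limma, adjusted p = 9.36e-05). *Srgn*, the proteoglycan core of secretory granules, scored 11982 to 15420 in No Dox MΦs, 6446 to 7593 in ECs and 1 to 383 in β cells, and was called higher in MΦs than in β cells (log2 7.75, adjusted p = 0.0003). *Kdr* and *Flt1*, the VEGF-A receptors, had lower scores in ECs after withdrawal than at No Dox without overlap. *Kdr* was at 39326 to 61402 against 92107 to 105159 (log2 -0.98, adjusted p = 0.00348), and *Flt1* at 72250 to 99647 against 127207 to 138669 (log2 -0.71, adjusted p = 0.00666), both under the 2-fold limit of a call.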
